A study of Mus musculus with 25 samples.

Results

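The genes described here are 9 tumour suppressors that are often silenced by promoter methylation in human breast cancer: Rassf1, Cdkn2a, Cdkn2b, Brca1, Cdh1, Cdh13, Dapk1, Mgmt and Apc. They were chosen by name, and their CpG sites were found by the gene name given in the deposited methylation table. The table names 16274 genes, and 7 of the 9 had a CpG in it. At an average coverage of 10 or more reads these 7 genes held 287 of 260376 CpGs. Cdh13 had 168 CpGs, Cdh1 44, Mgmt 41, Cdkn2a 19, Rassf1 7, Apc 6 and Brca1 2. No CpG carried the name Cdkn2b or Dapk1.

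DNA came from the mammary fat pads of 25 wild-type C57BL/6N mice and was read by reduced representation bisulfite sequencing (RRBS), which cuts DNA with MspI at CCGG, keeps short fragments (40 to 170 bp per the labels) and reads CpGs near the cuts. Control mice (n = 5) ate a control diet, and all others first became obese on a 60% high-fat diet. Those mice then stayed obese (Obese, n = 4) or lost weight on low-fat food eaten freely (LFD, n = 4), on low-fat food cut by 30% in calories (LFCR, n = 4), a Mediterranean-style diet cut by 30% (MCR, n = 3) or intermittent calorie restriction (ICR, n = 5). All mice, Control included, received E0771 mouse mammary cancer cells in one fat pad 25 weeks after the diets began, and the pad on the other side, which was not injected, gave the DNA. The pad is a mixture of fat, epithelium, vessels and blood cells, so a level is an average over them. The tissue was not checked against marker expression, since only methylation was measured. The titles of the samples name a tumour and the cell type label names mammary cancer, whereas the tissue label names normal contralateral tissue. The labels used here give no age.

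Tumour suppressor promoters usually lie in CpG islands, dense runs of CpGs that stay free of methylation in normal cells and often gain it in tumours, with loss of the transcript. Outside islands, in gene bodies and in the "open sea" far from any island, CpGs are normally methylated. The shore is the stretch beside an island and the shelf the stretch beyond the shore, as the authors annotate them in the table.

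The RefSeq promoter windows of these genes (GRCm38.p6, the build of mm10, from 250 bases before to 50 after a start) show how little of the promoters was read. There were 9 windows of 6 genes. Searched for CCGG, a palindrome that reads the same on both strands, 8 of the 9 held at least 1 match, and 52.8% of all 32851 windows of this length did. A CpG of the table lay in 2 of the 9, against 15.2% of all windows. These were the Dapk1 window and that of the upstream start of Rassf1. The stretches below show, in capitals, the measured CpG in those 2 windows. For Cdkn2a, Cdkn2b, Brca1 and Mgmt they show the CCGG nearest the start, in a window without a measured CpG. Each is given 5′ to 3′ on the gene's strand.
Dapk1, chr13:60602039-60602068, plus strand: ccgctcggagctgcCGgggacctggacccg
Rassf1, chr9:107551305-107551334, plus strand: agactcatgaaaCGcaacagtgtggcgctg
Cdkn2a, chr4:89294621-89294650, minus strand: gagcaaagatgggCCGGgggcggcgcgtgg
Cdkn2b, chr4:89311004-89311033, minus strand: tgagggggcggggCCGGcggcggtgcagaa
Brca1, chr11:101551907-101551936, minus strand: aggcgccaagcggCCGGtttccttggcgac
Mgmt, chr7:136894430-136894459, plus strand: ccccgccccttttCCGGcagctcccagagc

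The CpG of the table nearest to the upstream start of Cdkn2a, that of p19ARF, was 187 bp away, and the CpG nearest to its downstream start, that of p16INK4a, was 7062 bp away. The distance was 319 bp for Cdkn2b, 11892 bp for the upstream start of Mgmt and 27081 bp for Brca1. For Brca1, Mgmt and the p16INK4a start of Cdkn2a the promoter was therefore unread. The Dapk1 CpG shown above was at 0% in 13 of the 15 mice with a value used here and at most 2.08% in the others. The Rassf1 CpG shown above carries the name of the neighbouring gene Zmynd10 in the table. It averaged 4.52% ± 5.59 (SD, n = 5) in Control, 7.41% ± 10.5 (n = 2) in LFD, 6.88% ± 2.76 (n = 3) in LFCR, 8.85% ± 1.63 (n = 2) in MCR and 2% ± 4 (n = 4) in ICR, and Obese 22 read 0%. Control mice ran from 0% to 13.6%, a range that holds every LFCR, MCR and ICR mouse.

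Comparisons used 21 of the 25 libraries. Obese mice 27, 28 and 40 and LFD mouse 46 were set apart, as they were known to stand far from the rest. That left 1 Obese mouse (22) and 3 LFD mice, so Obese could not be tested. The 4 libraries also stood apart at some stretches of these genes: at the 2 shore CpGs of Rassf1 they read 52.3%, 38.9% and 45% and 58%, where every other mouse was at 1.02% or less. At its 2 island CpGs Obese 28 and LFD 46 read 27.6% and 66.25%, but Obese 27 and 40 read 0%, like many other mice. Mean methylation over 95333 CpGs with a value in all 21 mice was 56.1% ± 1.52 (SD, n = 5) in Control, 54.5% in Obese 22, 51.8% ± 3.18 (n = 3) in LFD, 50% ± 3.87 (n = 4) in LFCR, 46.8% ± 0.343 (n = 3) in MCR and 53.1% ± 1.48 (n = 5) in ICR. The share of the 287 CpGs with a value ran from 6.27% in Control 1, 12.9% in ICR 102 and 27.9% in MCR 95 to 100% in Control 13, Obese 22, MCR 96 and ICR 112. Over all CpGs the share was higher in the sparse libraries: 52% in Control 1, 60.4% in ICR 102 and 56.3% in MCR 95. Control 10 had 35.5% of the 287 and 69.6% of all. Depth per library is unknown, so single values carry no interval.

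**Figure D1:**
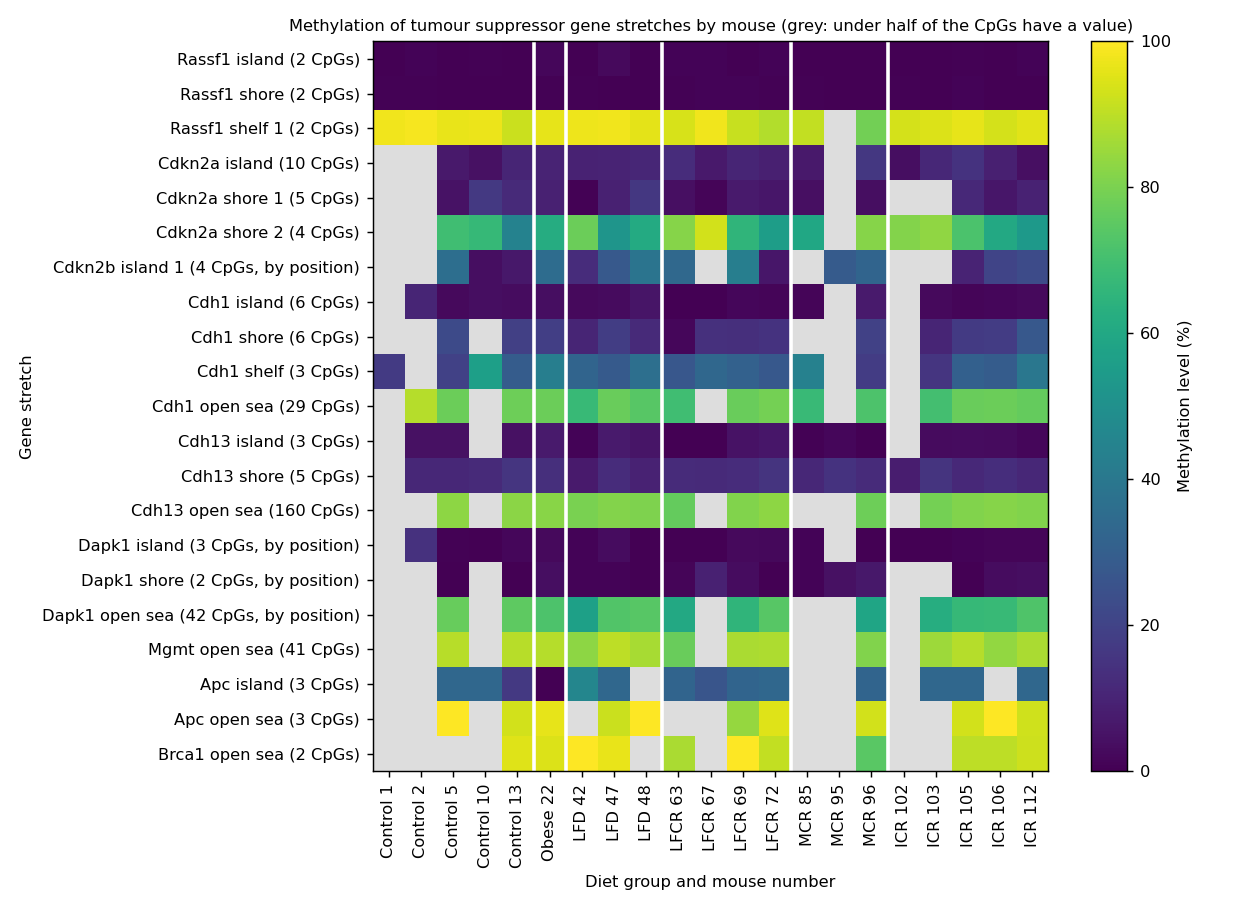
Methylation level (%, colour scale from 0 to 100) of each gene's island, shore, shelf and open sea CpGs (rows, with the number of CpGs) in the 21 mice (columns, by diet group). Island rows of Rassf1, Cdh1, Cdh13 and Dapk1 are dark, open sea rows are bright, and grey cells, where fewer than 0.5 of the CpGs have a value, are most frequent in Control 1, MCR 95 and ICR 102. Dapk1 and Cdkn2b rows were found by position.

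Most island CpGs of the 7 named genes were little methylated, and most of their open sea CpGs were highly methylated. Group means over the open sea stretches of Cdh1, Cdh13, Mgmt, Apc and Brca1 ran from 69.9% (Cdh1, MCR) to 98.4% (Brca1, LFD). Not all of a gene body was highly methylated: the island and shore CpGs of Rassf1 and the far shore CpGs of Cdkn2a are annotated to the body or 3′ UTR and were low. Taking the mean over the mice, 30 of the 287 CpGs were under 10%, 18 between 10% and 30%, 33 between 30% and 70% and 206 at 70% or more. Of the 24 island CpGs, 20 were under 10% and 23 under 20%, and the one exception was an Apc CpG. Of the 235 open sea CpGs, 201 were at 70% or more.

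Rassf1 encodes a scaffold protein that feeds the Hippo kinases and restrains the cell cycle, and its promoter is often methylated in breast cancer. Its 3 CpGs at chr9:107554988-107555265, at the border of island and shore, stood at 0.192% ± 0.287 (SD, n = 5) in Control, 0.789% ± 0.881 (n = 3) in LFD, 0.927% ± 0.199 (n = 4) in LFCR, 0.107% ± 0.185 (n = 3) in MCR, 0.497% ± 0.425 (n = 5) in ICR and 0.93% in Obese 22. These CpGs lie past the downstream start at 107554583 and outside both promoter windows. They do not show the level at the upstream start, 107551555. The highest mouse was LFD 47 at 1.8%. LFCR 63, 67, 69 and 72, at 1.12%, 1.01%, 0.654% and 0.926%, all lay above the highest Control mouse, Control 2 at 0.644%, by little, and MCR overlapped Control. MCR differed from Control by -0.0854 points, with a 95% interval of -1.59 to 1.42 (adjusted p = 0.931, limma). LFCR differed by 0.735 points, with an interval of -0.651 to 2.12 (adjusted p = 0.391).

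Further along Rassf1, 3 shelf CpGs were highly methylated. At position 107560919 Control mice 1, 2, 5, 10 and 13 read 93.1%, 94.6%, 94%, 86.5% and 88.9%, and MCR mice 85, 95 and 96 read 80.8%, 78.6% and 87.5%. The ranges overlapped through Control 10 and MCR 96. The difference of -9.13 points (SE 4.03) had an unadjusted p of 0.0371 and did not pass adjustment (adjusted p = 0.0849, limma).

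Cdkn2a encodes p16INK4a and p19ARF, which hold the RB and p53 pathways active. Its 10 island CpGs (chr4:89294194-89294432) averaged 7.19% ± 3.01 (SD, n = 3) in Control, 10% ± 0.63 (n = 3) in LFD, 9.62% ± 2.54 (n = 4) in LFCR, 8.44% ± 4.68 (n = 5) in ICR and 9.82% in Obese 22. The 2 MCR mice with enough CpGs, 85 and 96, were at 6.7% and 16.1%. MCR 96 was the highest of the mice with a level, and at the first of these CpGs, 89294194, it read 61.9%. None of the 10 island CpGs had values in 3 MCR mice, so none was tested.

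Only 594 bp from the island, 4 shore CpGs of Cdkn2a (chr4:89293524-89293600) were mostly methylated and varied widely from mouse to mouse. Control 5, 10 and 13 stood at 69.2%, 66.9% and 44.5%. LFCR mice 63, 67, 69 and 72 stood at 81.8%, 93.1%, 65.5% and 55.5%, a wider range than that of Control and overlapping it.

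At the other end of Cdkn2a, the CpG at position 89275115 was called lower in MCR and, at the margin of the threshold, in LFCR. Control 5, 10 and 13 read 11.5%, 33.3% and 8.11%. MCR 85, 95 and 96 each read 0%, and LFCR 63, 67, 69 and 72 read 0%, 0%, 3.7% and 1.54%. All 7 mice of these diets lay below the 3 Control mice. LFD 42, 47 and 48 read 0%, 6.52% and 18.8%, ICR mice 2.38% to 8.33% (n = 4) and Obese 22 13.2%. MCR fell by 17.7 points (SE 5.47, adjusted p = 0.022, limma), whereas for LFCR the fall was of 16.3 points, with an SE of 5.12 and an adjusted p of 0.0498. The MCR call was lost without MCR 85 (adjusted p = 0.0526, limma), without MCR 95 (0.0594) or without MCR 96 (0.0518). The difference stayed the same in these fits because each MCR mouse read 0%. No fit could leave out a Control mouse with a value, since only 3 had one and 3 were needed. The weight of Control 10, at 33.3%, was therefore not tested for MCR or LFCR. The LFCR call passed in 2 of 17 fits that left out 1 mouse (adjusted p 0.0399 to 0.141) and was lost with 2 mice a group allowed (0.0663). The 4 neighbouring CpGs had group means between 0% and 21.3%. One of them, 89275075, 40 bp away, stood at 9.77% in MCR and 2.86% in Control and did not pass the test.

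**Figure D2:**
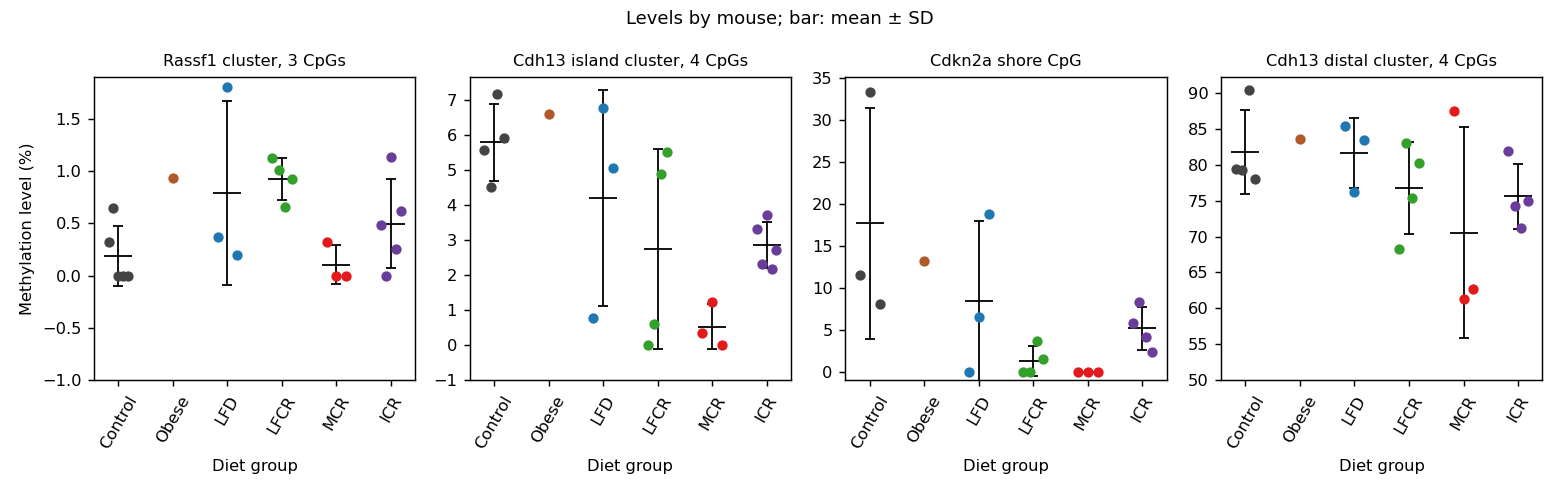
Methylation level (%, a separate vertical scale for each panel; the right panel starts at 50) by diet group for the Rassf1 cluster, the island cluster of Cdh13, the Cdkn2a CpG at the far end of the gene and a distal cluster of Cdh13. Each point is 1 mouse and bars are mean ± SD, cut off at the lower edge of a panel. The Rassf1 points lie below 2%, and in the Cdh13 island cluster and the Cdkn2a panel the 3 MCR mice lie below all Control mice that have a value.

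Cdh1 encodes E-cadherin, which holds epithelial cells together. Its 6 island CpGs (chr8:106603428-106604009) averaged 5.05% ± 3.6 (SD, n = 4) in Control, 3.58% ± 1.73 (n = 3) in LFD, 0.764% ± 0.908 (n = 4) in LFCR, 4.36% ± 4.1 (n = 2) in MCR and 2.04% ± 0.621 (n = 4) in ICR. The highest Control mouse was Control 2 at 10.4%, with Control 5, 10 and 13 at 2.66%, 3.73% and 3.41%. LFCR 63, 67, 69 and 72, at 0%, 0%, 1.79% and 1.26%, lay below all Control mice. The 1 island CpG of Cdh1 that could be tested, 106603582, did not pass: LFCR differed from Control by -2.63 points. At that CpG MCR 95 read 25%, where MCR 85 and 96 read 0% and 4.26%.

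Methylation rose with distance into the Cdh1 gene. The 6 shore CpGs stood between 1.75% and 27.4% over mice, the 3 shelf CpGs between 15.5% and 56.4%, and the 29 open sea CpGs between 67.4% and 88.7%. Over the open sea CpGs the lowest mice were LFD 42 (67.4%), MCR 85 (67.6%), LFCR 63 (69.2%) and ICR 103 (69.9%), and the highest was Control 2. The first 3 of these were also among the mice of lowest mean methylation over the whole table, at 48.3%, 46.8% and 46.5%. Its part in these levels was not tested. Among the 5 tested CpGs of Cdh1 the smallest p in MCR against Control was at 106635833, where Control stood at 87.9% ± 9.15 (SD, n = 4) and MCR at 74.7% ± 15.2 (n = 3). The difference of -13.2 points (SE 7.28) did not pass (adjusted p = 0.17, limma).

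At 3 body CpGs of Cdh1 within 107 bp only 2 MCR mice had values, and both were low. At 106616439, Control 2, 5, 10 and 13 read 100%, 67.9%, 64.3% and 67.2%, against 25% and 50% in MCR 85 and 96. At 106616446 they read 93.9%, 76.9%, 71.4% and 78.7%, against 52% and 52.4%. At 106616546 Control 2, 5 and 13 read 88.2%, 65.4% and 72.7%, against 30.8% and 50%. Both MCR mice lay below all Control mice at each. These CpGs could be tested only where 2 mice a group sufficed, a setting added after the data were seen. There MCR differed from Control by -37.3 points at the first (adjusted p = 0.0186, limma), by -28 points at the second (adjusted p = 0.0122) and by -35.1 points at the third (adjusted p = 0.0134), with SEs of 10.6, 7.26 and 9.08. The 3 CpGs are neighbours and are not independent.

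Cdh13 encodes T-cadherin, an adiponectin receptor held at the membrane by a lipid anchor, and its RefSeq interval spans 1184913 bases. Of its 168 CpGs, 36 were tested, and 5 clusters were formed (CpGs at most 300 bp apart, at least 3 of them). In the cluster of 4 CpGs at chr8:118284398-118284677, island and shore, Control 2, 5, 10 and 13 stood at 5.57%, 4.52%, 7.18% and 5.93%. MCR 85, 95 and 96 stood at 0.347%, 1.25% and 0%. LFCR 63, 67, 69 and 72 stood at 0%, 0.61%, 4.88% and 5.53%, ICR mice at 2.19% to 3.73% (n = 5), LFD 42, 47 and 48 at 0.781%, 6.77% and 5.06%, and Obese 22 at 6.62%. The MCR and ICR mice all lay below the lowest Control mouse, and LFCR was split, with 63 and 67 below it and 69 and 72 within the Control range.

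MCR differed from Control in that cluster by -5.27 points (95% interval of the difference -8.52 to -2.01, SE 1.53, adjusted p = 0.00852, limma). LFCR differed by -3.04 points (adjusted p = 0.101) and ICR by -2.94 (adjusted p = 0.274), and neither passed. MCR against LFCR differed by -2.22 points, with an interval of -5.48 to 1.03. Without MCR 95 the MCR difference from Control was -3.95 points (adjusted p = 0.148, limma), but not over the same CpGs. With fewer MCR mice needed, 100 CpGs of these genes were tested instead of 54, and the cluster was rebuilt. Over the CpGs given above, MCR 95 was the highest MCR mouse, at 1.25%. Within the cluster, the CpG at 118284677 read 8.51%, 4.71%, 14.8% and 9.82% in Control and 0% in all 3 MCR mice. That difference, -9.46 points (SE 2.36, adjusted p = 0.00634), stayed past the threshold with each of 20 mice left out in turn (adjusted p 0.00352 to 0.0243). With all 25 libraries in the fit the difference was the same, but the call was lost (adjusted p = 0.533).

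The next Cdh13 cluster, 3 shore CpGs at chr8:118285798-118285987, gave no call. It stood at 16.1% ± 2.06 (SD, n = 4) in Control, 19.2% ± 2.81 (n = 3) in MCR and 19.5% ± 0.706 (n = 4) in LFCR. MCR differed from Control by 3.06 points (interval -2.17 to 8.28) and LFCR by 3.32 (interval -1.51 to 8.16). One of its CpGs, 118285906, was higher in LFCR: Control 2, 5, 10 and 13 read 15.8%, 15.4%, 15.4% and 16.9%, and LFCR 63, 67, 69 and 72 read 20.5%, 30.2%, 35.1% and 25%. The groups did not overlap, and the difference of 11.8 points (SE 3.77) had an adjusted p of 0.0489. It passed in 5 of 20 fits that left out 1 mouse and was lost with all 25 libraries (adjusted p = 0.548), on the arcsine square root scale (0.0638) or with 2 mice a group (0.0653).

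The other Cdh13 clusters lay far inside the gene and were highly methylated. At chr8:118941296-118941348 Control was at 94% ± 5.32 (SD, n = 3) and MCR at 86.9% ± 0.379 (n = 3). At chr8:119186943-119186991 Control 2, 5, 10 and 13 stood at 79.3%, 79.2%, 90.4% and 77.9% and MCR 85, 95 and 96 at 87.5%, 61.4% and 62.8%. The difference of -11.2 points (adjusted p = 0.0972) did not pass, and it moved widely with the MCR mice. It was -19.7 points without MCR 85 (adjusted p = 0.00395, limma) and -7.3 without MCR 96 (0.339). Without MCR 95 it was -3.89 (0.53), but there the cluster was rebuilt over other CpGs, so that value does not compare with these. Of 20 fits that left out 1 mouse, 1 passed. At chr8:119292946-119293009 Control was at 88.7% ± 9.68 (SD, n = 4) and MCR at 86.4% ± 7.5 (n = 3).

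A single body CpG of Cdh13, 119087627, fell in MCR. Control 2, 5, 10 and 13 read 93.8%, 86.4%, 100% and 86.7%, and MCR 85, 95 and 96 read 65.2%, 71.4% and 88.7%, so MCR 96 lay within the Control range. The difference was -16.6 points (SE 5.31, adjusted p = 0.0244, limma). It did not pass without MCR 85 (-11.6 points, adjusted p = 0.13), MCR 95 (-14.7, 0.0941), Control 10 (-13.8, 0.0605) or Control 2 (-15.9, 0.0536).

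**Figure D3:**
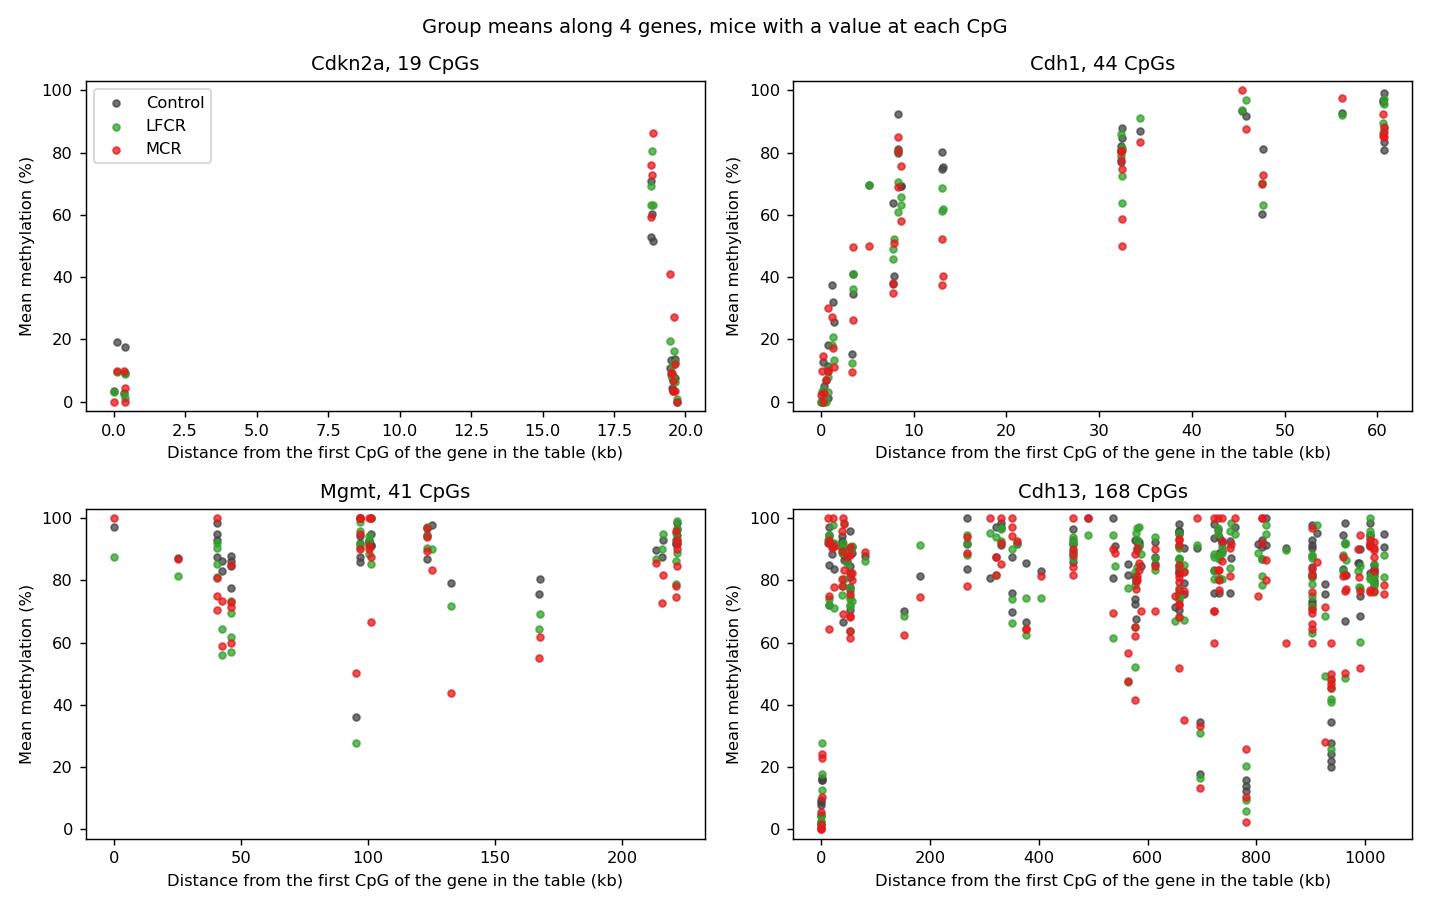
Mean methylation (%) of Control, LFCR and MCR mice at each CpG against the distance (kb) from the gene's first CpG in the table, for Cdkn2a, Cdh1, Mgmt and Cdh13. Cdh1 climbs from near 0 to above 80%, Cdkn2a is low at both ends with 4 methylated shore CpGs, Mgmt is mostly high, and Cdh13 is low at its first CpGs and mostly high beyond. Many MCR points are single mice.

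Mgmt encodes the enzyme that removes alkyl groups from guanine. All 41 of its CpGs lay in the open sea of the body, and 39 were at 70% or more. Their mean was 89.4% and 89.2% in Control 5 and 13, 81.2% in MCR 96, 77%, 87.3% and 87.7% in LFCR 63, 69 and 72, 83% to 89.9% (n = 3) in LFD, 83.8% to 89% (n = 4) in ICR and 88.9% in Obese 22. LFCR 63 and MCR 96 were the lowest, and both had a low mean over the table too (46.5% and 47.2%). The part of that mean was not tested here either.

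None of the 5 tested Mgmt CpGs passed in any comparison. The smallest p in MCR against Control was at 136952765, with Control at 86.1% ± 7.59 (SD, n = 4) and MCR at 73.1% ± 13.3 (n = 3) (-13 points, adjusted p = 0.278, limma). At 136948958, LFCR 63, 67, 69 and 72 read 45.5%, 60%, 77.9% and 74.2% against 82.6%, 81.3% and 85.1% in Control 2, 5 and 13. All 4 lay below Control, but the difference of -18.6 points (SE 7.24) had an unadjusted p of 0.0214 and an adjusted p of 0.0941. With 2 mice a group allowed, the CpG at 137039202 fell in MCR: Control 5, 10 and 13 read 63.9%, 83.3% and 90.2%, and MCR 85 and 96 read 42.9% and 45%. The difference was -35.2 points (SE 8.09, adjusted p = 0.00853).

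Apc encodes the scaffold that marks β-catenin for destruction. In its island, the CpGs at 34221258 and 34221292 on chromosome 18 read 0% in every mouse with a value (14 and 13 mice) except LFD 42, at 20%. At 34221346, 54 bp on and in the same island, Control 1, 2, 5 and 10 read 100% and Control 13 read 50%. Obese 22 read 0% there, and the other mice read 79% to 100%. The step from empty to full within 54 bp was thus seen in at least 1 mouse of every group but Obese, while Obese 22 and Control 13 departed from it. MCR differed from Control by 5.18 points at this CpG and did not pass the test. The 3 body CpGs of Apc had group means of 86.4% to 100%.

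Brca1 encodes a protein of homologous recombination repair. Its 2 CpGs were in the body. At 101494566, 11 of the 21 mice had a value, from 80% to 100%. At 101489837, 10 mice had one, from 90.9% to 100% apart from MCR 96, at 60%. Neither could be tested.

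Cdkn2b and Dapk1 had no CpG by name, but 10.5% of the CpGs in the table have no gene name in any row. By position, 5 unnamed CpGs lay inside the RefSeq interval of Cdkn2b (chr4:89306289-89311032) and 47 inside that of Dapk1 (chr13:60601723-60763191). This was found after the data were seen. Cdkn2b encodes p15INK4b, an inhibitor of CDK4 and CDK6. Its first exon CpG at 89310713 read 0% in Control 5 and 13, MCR 96 and ICR 105 and 112, 1.92% in LFD 47, 0% and 8.33% in LFCR 69 and 72 and 6.98% in Obese 22. The other 4, in a body island, ranged from 3.57% to 42.9% over mice, with Control 5, 10 and 13 at 36.3%, 3.57% and 6.25%.

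Dapk1 encodes a calcium-dependent kinase that promotes cell death. Its 3 island CpGs were at 3.48% or less in all mice with a level but Control 2, at 14.4%, and its 2 shore CpGs were at 9.09% or less. Its 42 open sea CpGs averaged 76.8% and 75.2% in Control 5 and 13 and 58.9% in MCR 96, with LFD 42 at 57% and LFCR 63 at 60.4%. Of 7 tested Dapk1 CpGs, 2 fell in MCR (28.6%), a share close to the 32.8% of all tested CpGs called lower there, and none passed in another comparison.

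At the Dapk1 CpG 60617905 Control 2, 5 and 13 read 66.7%, 85.5% and 85.8%, and MCR 85, 95 and 96 read 38.1%, 58.3% and 34.1%. The difference was -35.8 points (SE 10, adjusted p = 0.0135, limma). At 60687110 Control 2, 5, 10 and 13 read 78.9%, 46.6%, 60% and 55%, and MCR 85, 95 and 96 read 33.3%, 30% and 33.3%. There it was -27.9 points (SE 8.85, adjusted p = 0.0233). MCR lay below Control without overlap at both. The LFD, LFCR and ICR means also lay below those of Control, 79.3% and 60.1%. At 60617905 LFD averaged 59% ± 16.2 (SD, n = 3), LFCR 54.9% ± 17.4 (n = 4) and ICR 65.9% ± 1.95 (n = 4), and Obese 22 read 56%. At 60687110 LFD averaged 37.9% ± 13.7 (n = 3), LFCR 38.9% ± 12.9 (n = 4) and ICR 37.9% ± 12.7 (n = 4), and Obese 22 read 62.8%. MCR against LFCR passed at neither (adjusted p = 0.658 and 0.805, limma). In MCR against Control the first CpG was not called without MCR 96 (adjusted p = 0.0532), and the second was not called without Control 2 (0.0693), MCR 85 (0.0534), MCR 95 (0.0739) or MCR 96 (0.0527).

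Over the 7 named genes, calls were few beside the whole table. A CpG was tested when at least 3 mice of each group other than Obese had a value, which held for 54 of the 287 CpGs, 36 of them in Cdh13. Only 7 of the 54 had a value in all 21 mice, against 95333 of all 129217 CpGs tested. The CpGs of these genes thus more often lacked mice, so their shares called are not like for like with the table. The part of the missing mice in the low shares was not tested. In MCR against Control 3 of 54 were lower (5.56%) and none was higher, against 32.8% lower and 4.54% higher among all 129217 CpGs tested. Their median difference was -3.63 points, against -7.3 over all CpGs. Of the 6 clusters 1 was lower, against 53% lower and 6.26% higher of 17135 clusters. The counts moved with single mice, in part because fewer or more CpGs could be tested: 1 CpG was called without Control 10 (of 51 tested, Cdkn2a 89275115 no longer among them), 9 without MCR 85 (5 lower, of 62 tested) and 8 without MCR 95 (all lower, of 100 tested). Over the whole table the full fit called 42412 lower and 5869 higher. The fit without Control 10 called 49324 there (43187 lower), that without MCR 85 39439 (34625 lower) and that without MCR 95 42396 (37162 lower). How many CpGs of the table these fits tested is not given here. Without Control 2, Control 5 or Control 13 only 4 clusters could be tested, the called one not among them, and none was called. Without MCR 85 3 of 8 were called, and without MCR 95 2 of 15. The called cluster was tested in 17 of these fits and passed in 16. The fit in which it did not pass, without MCR 95, had it rebuilt over other CpGs.

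With 2 mice a group allowed, 13 of 142 CpGs were lower in MCR (9.15%) and 1 higher, against 24.8% and 3.4% of 195892. These 13 were 6 of Cdh13, 4 of Cdh1, 2 of Mgmt and 1 of Cdkn2a. The higher one was Cdh13 118635799, at 70.2%, 71.4% and 67.8% in Control 5, 10 and 13 and at 100% and 94.1% in MCR 95 and 96. The largest difference was that of Cdh13 119210504, -47.4 points (SE 10, adjusted p = 0.00682, limma): Control 2, 5 and 13 read 80%, 83.3% and 63.4% and MCR 95 and 96 read 16.7% and 39.7%. There ICR mice read 30.4% to 53.3% (n = 4) and Obese 22 33.3%, also below Control.

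The level in Control limits how far a CpG can fall. Among the 10 tested CpGs of these genes under 10% in Control the median MCR difference was -0.288 points, against -0.0789 over 21155 CpGs. Of these 10, 1 was called lower (10%), against 1.35%. Among the 5 between 10% and 30% the median was -3.51 points, against -4.68 over 16676, and 1 was called lower (20%), against 23.5%. The 30% to 50% and 50% to 70% ranges held 1 tested CpG each, and neither was called lower. Among the 19 between 70% and 90% it was -5.69 points, against -12.3 over 41399, and none of the 19 was called, against 44.7%. Among the 18 over 90% it was -4.74 points, against -7.57 over 20914, and 1 was called lower (5.56%), against 29.7%.

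**Figure D4:**
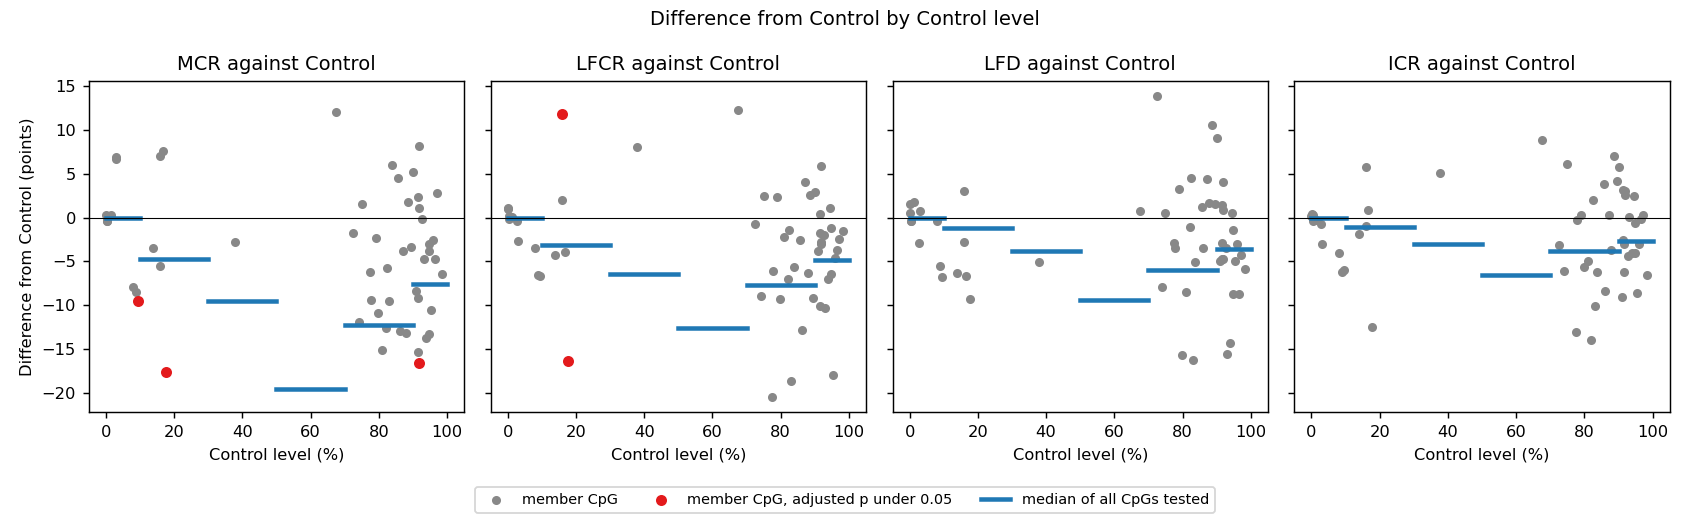
Difference from Control (percentage points) of the 54 tested CpGs against their level in Control (%), for MCR, LFCR, LFD and ICR. Points are CpGs (red: adjusted p under 0.05), and blue lines are the medians of all tested CpGs in the same range of Control level. In the MCR panel most points between 70% and 90% lie above the blue line at -12.3 points.

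In LFCR against Control 1 CpG was lower (Cdkn2a 89275115) and 1 higher (Cdh13 118285906), against 12.1% and 1.48% of all CpGs. The median was -2.59 points, against -4.51. Both calls were marginal, and neither was made without LFCR 63 (adjusted p = 0.141 for Cdkn2a and 0.0891 for Cdh13) or without LFCR 67 (0.136 and 0.147). The count was 0 without Control 1, 2, 10 or 13, ICR 105, 106 or 112, LFD 47, LFCR 63 or 67 or MCR 95 or 96. It was 1 without Control 5, ICR 102 or 103, LFD 48, LFCR 69 or MCR 85, and 4 (3 lower) without LFCR 72. No cluster was called, against 31.3% lower and 3.44% higher in the table, and 1 was called without LFCR 72 or without MCR 85. The CpG calls of the whole table also hung on LFCR 63 and 67. In the full fit 15582 CpGs of the table were lower and 1912 higher. Without LFCR 63 only 12 were called (10 lower), and without LFCR 67 only 23 (18 lower). With all 25 libraries 2316 were called (2118 lower). The shares of 12.1% and 1.48% are thus no firm yardstick.

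The remaining comparisons gave no calls at these genes. In LFD against Control limma called 0 of 54 CpGs, against 0% of all CpGs and 0.00584% of clusters lower. At an unadjusted p under 0.05 (limma) were 5 of the 54, against 20274 lower and 4098 higher of all 129217 CpGs. Unadjusted counts below are of the same 54 and 129217. The median was -2.89 points against -3.07. In ICR against Control limma called 0, against 0%, and the median was -0.818 points against -2.11. Unadjusted, 2 were under 0.05, against 13547 lower and 2980 higher. MCR against LFCR gave 0 calls, against 0.00774% lower and 0.00232% higher, and 4 unadjusted, against 11383 lower and 2592 higher. LFCR against LFD gave 0 calls, against 0%, and 2 unadjusted, against 4998 lower and 1779 higher. ICR against LFCR and MCR together gave 0 calls, against 0.00542% lower and 0.0596% higher. Unadjusted it gave 2, against 3435 lower and 29818 higher. In that last comparison 14.2% of all clusters were higher in ICR and 1.03% lower, and 0 of the 6 here were called. Without LFD 42, 1 CpG was called there. The comparisons with Control share the same Control mice.

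Other genes of the same pathways were read from lists drawn up with earlier results known. By limma calls in MCR against Control 260 of 679 CpGs of other cadherins and catenins were lower and 34 higher. Of their 98 clusters 66 were lower and 9 higher, against 53% lower and 6.26% higher of all clusters. Of genes of the INK4, RB and p53 pathway 45 of 235 CpGs were lower and 9 higher, and of RASSF and Hippo genes 9 of 48 were lower and 8 higher. Wnt antagonists and APC partners had 67 of 204 lower and 38 higher, and other genes methylated in breast cancer 118 of 348 lower and 32 higher. DNA repair genes had 9 of 20 lower and 2 higher, and death-associated kinases and apoptosis genes 3 of 11 lower and 0 higher. Against 32.8% lower in the table, the cadherins (38.3%), Wnt antagonists (32.8%) and other breast cancer genes (33.9%) were close to or above the background, as were the DNA repair genes (45%), whose 20 CpGs come from 2 of the 15 genes listed. RASSF and Hippo genes (18.8%), the INK4, RB and p53 genes (19.1%) and the death-associated genes (27.3%, from 2 of 10 genes) were below it. Clusters did not always go with CpGs. Of the other breast cancer genes 13 of 33 clusters were lower, below the 53% of all clusters, and of the Wnt antagonists 15 of 21. The INK4, RB and p53 genes had 10 of 25 lower and RASSF and Hippo genes 2 of 7. Repair genes had 3 of 4 lower and death-associated genes 1 of 2. Against 4.54% higher in the table, the Wnt antagonists (18.6%), RASSF and Hippo genes (16.7%), DNA repair genes (10%), other breast cancer genes (9.2%) and cadherins (5.01%) had a larger share called higher, and the INK4, RB and p53 genes (3.83%) a smaller one. In LFCR against Control, 82 of 679 cadherin CpGs, 8 of 235 of the INK4, RB and p53 genes, 0 of 48 of the RASSF genes, 29 of 204 of the Wnt antagonists, 77 of 348 of the other breast cancer genes, 2 of 20 of the repair genes and 0 of 11 of the death-associated genes were lower, against 12.1% of the table. In the same order 12 (1.77%), 1 (0.426%), 3 (6.25%), 26 (12.7%), 12 (3.45%), 1 (5%) and 0 were higher, against 1.48%.

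Genes that mark the cells of a fat pad were read beside the whole table, where the mean went from 56.1% in Control to 46.8% in MCR with 32.8% of CpGs lower and 4.54% higher. Over 43 CpGs of luminal epithelial genes the mean was 70.7% ± 4.65 (SD, n = 5) in Control and 50.1% ± 1.31 (n = 3) in MCR, and 25 of 57 tested CpGs were lower (43.9%). Over 73 leukocyte CpGs it was 61.1% ± 1.94 (n = 5) and 53% ± 0.558 (n = 3), with 43 of 96 lower (44.8%) and 27 higher (28.1%). Over 11 basal epithelial CpGs it was 79.2% and 65.3% (12 of 23 lower, 52.2%, all in 1 gene), over 69 endothelial CpGs 53.6% and 42.7% (35 of 93, 37.6%), over 42 fibroblast CpGs 58.3% and 42.1% (30 of 51, 58.8%) and over 74 skeletal muscle CpGs 58.7% and 53.4% (18 of 81, 22.2%). Over 48 adipocyte CpGs it was 42.5% ± 1.61 (n = 5) and 42.7% ± 1.02 (n = 3), with 10 of 57 lower (17.5%) and 8 higher (14%). The endothelial share was close to that of the table, and the muscle and adipocyte shares were below it. By clusters, 5 of 10 were lower for adipocyte genes (median -9.81 points) and 4 of 12 for muscle genes (median -5.58). Over all clusters 53% were lower (median -7.8). The share of CpGs called higher was 0% for luminal, basal and fibroblast genes, 4.3% for endothelial and 3.7% for muscle genes. A change in the mix of cells and a change within cells cannot be told apart in bulk DNA, and the part of either in the Cdh13, Cdkn2a and Dapk1 differences was not tested.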

How the data were processed

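Per the submitters' processing notes the reads were processed with Bismark against mm10; versions are not given in the sources used here. In the deposited file the authors give the methylation level of 283974 CpGs as a fraction of reads in each library, missing where there is none, and an average coverage signal in reads over 21 libraries (whole at 100% of CpGs after multiplication by 21, tolerance 1e-06). Levels are printed here in percent. CpGs needed an average coverage of 10, and 38 on other sequences than chromosomes were left out. The 129217 CpGs measured in 3 or more mice of each group of that size, and 17135 clusters built from them, were fitted with 1 term per diet group and variances moderated by limma's squeezeVar, two-sided, adjusted by Benjamini-Hochberg over all of them. Differences with an adjusted p below 0.05 were called. The level of a cluster or stretch in a mouse is the average CpG mean plus the mean deviation of that mouse, where 0.5 or more of its CpGs were measured; stretch levels were bounded to 0 to 100. The fit was tested on simulated data. Per gene, the text names every cluster, the CpG of smallest p in MCR against Control, and called CpGs. Other CpGs were picked after their values were seen. Clusters like a member were sought for clusters that span 10 points with a level in all 21 libraries, and 0 met this. The genes, libraries and lists were chosen with earlier results of these data known. Software was R 4.3.3, limma 3.58.1, Python 3.11.15, pandas 2.3.3 and matplotlib 3.10.9. Alternatives were coverage minimums of 5 and 20, an arcsine square root scale, CpGs measured in every library, all 25 libraries, clusters with gaps of 100 or 1000 bp, leaving out each mouse and, added after seeing the data, 2 mice per group.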

Additional observations from a re-analysis of the deposited data

Results flagged for a closer look

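Of 72 groups of 4 or more mice, 6 held a mouse far from the others of its group, and chance alone gives about 1 in 20. Control 10 stood at 90.4% in the Cdh13 cluster at chr8:119186943-119186991, where Control 2, 5 and 13 stood at 79.3%, 79.2% and 77.9%, and at 74.3% in the one at chr8:119292946-119293009, where they stood at 95.1%, 91.6% and 93.6%. Control 13 read 50% at the Apc CpG 34221346, where the other 4 read 100%. Control 2 stood at 10.4% over the Cdh1 island, with Control 5, 10 and 13 at 2.66%, 3.73% and 3.41%. It also stood at 14.4% over the Dapk1 island, with the same 3 mice at 0.654%, 0% and 1.69%. LFCR 63 stood at 1.75% over the Cdh1 shore, where LFCR 67, 69 and 72 stood at 13.7%, 13.6% and 14.5%.

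The libraries set apart (Obese 27, 28 and 40 and LFD 46) were above every Control mouse at 7 stretches of low methylation. Their values were 36.6%, 24.6% and 22.7% and 23.2% at the Cdh1 island, where the highest Control mouse was at 10.4%. At the Cdh1 shore they were 36.8%, 38.8% and 33.4% and 38.9% (highest Control 22.5%), and at the Cdh13 shore 53.6%, 56.4% and 57.1% and 60% (highest Control 15.3%). At the Cdkn2a island they were 27.2%, 24.2% and 17.6% and 20% (highest Control 10.4%), and at the Rassf1 shore the lowest was 38.9% (highest Control 0.476%). At the Dapk1 island Obese 28 and LFD 46 stood at 39.7% and 33.3%, and at the Dapk1 shore at 93.3% and 100%, where Control 5 and 13 were at 0%. At the Dapk1 promoter CpG the 4 libraries read 63.6%, 61.3% and 87.5% and 100%.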

How the results depend on the processing

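No paired analysis was possible because mouse numbers are not shared between groups. Counts of calls at the 7 genes kept within 1.5 times of the reported ones at coverage minimums of 5 and 20 and at 1000 bp. In MCR against Control the CpG count went from 3 to 0 (7 tested) with a value in every library, 1 (22 tested) with all 25 libraries and 14 (142 tested) with 2 mice a group; the cluster count went from 1 to 0, 0 and 3 under the same settings and to 0 at 100 bp. In LFCR against Control the CpG count went from 2 to 1 on the arcsine scale and to 0 under those 3 settings, and the cluster count from 0 to 1 with 2 mice a group, where ICR against LFCR and MCR also gave 1 cluster. Over the whole table MCR against Control gave 41808 CpG calls with a value in every library, 21576 with all 25 libraries and 55224 with 2 mice a group. For LFCR against Control these numbers were 18322, 2316 and 14166. Leaving out 1 mouse gave 1 to 9 CpGs and 0 to 3 clusters in MCR against Control, 0 to 4 CpGs and 0 to 1 clusters in LFCR against Control, 0 to 1 CpGs in ICR against LFCR and MCR, and 0 in every other. Fewer CpGs or mice tested account for part of these; other causes were not tested. The Cdh13 island cluster difference in MCR was -3.93 points with 2 mice a group (adjusted p = 0.097), over more CpGs. No difference tracked reversed in a call. Read depth per library is unknown, 233 of 287 CpGs were not tested, and MCR 96 alone carries many MCR values.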
